A study of Homo sapiens with 4 samples.

Results

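The transcripts described here are 10 genes that ERK signalling switches on to restrain itself or to carry its output: the phosphatases DUSP1, DUSP4, DUSP5 and DUSP6, the inhibitors SPRY1, SPRY2, SPRY4 and SPRED1, and the transcription factors ETV4 and ETV5. They were taken by symbol, and each matched 1 of the 64252 gene IDs of the count table. RNA was sequenced from SK-N-BE(2), an established human neuroblastoma line with amplified MYCN. Cells transfected with a scramble short hairpin RNA (shScb, labelled control, 2 libraries) were compared with cells transfected with a hairpin against TTC8 (shTTC8, 2 libraries). Both groups are of the same line and both carry a hairpin. The sources used here give neither the number and sequence of the hairpins nor the time after transfection. No label ties the 2 libraries of a group to separate cultures. The p-values then reflect only the spread between these samples, and that spread may be technical. In bulk RNA, fewer cells of a type and less RNA per cell cannot be told apart.

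When growth factors bind receptor tyrosine kinases, adaptors load RAS with GTP, and RAF, MEK and ERK are activated in turn. ERK induces its own brakes: dual-specificity phosphatases take the phosphates off ERK and related kinases, and Sprouty and SPRED proteins act upstream, between the receptor and RAF. ETV4 and ETV5, PEA3-type ETS transcription factors, are transcribed in response to ERK and pass its signal on, and in neuroblastoma the receptors ALK and RET feed this pathway.

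TTC8, which encodes a subunit of the BBSome that moves membrane proteins through cilia, lies on chromosome 14 (88824153 to 88881078, plus strand, GRCh38). It had 9888 and 10398 counts in shScb and 1130 and 1268 in shTTC8, and fell by 2.70 on the log2 scale (SE 0.07, edgeR adjusted p = 5.38e-12). Libraries held 38284663 to 55331449 counts, with the shTTC8 libraries the shallower ones. Of 19610 genes tested, 31.9% were called at an adjusted p under 0.05, 15.2% higher and 16.7% lower in shTTC8. Of 9 tested marker genes of adrenergic neuroblastoma, 1 rose and 7 fell, GATA3 by 0.49 and TH by 0.36 on the log2 scale, while HAND2 stood at 0.06 (edgeR adjusted p = 1.74e-05, 3.26e-04 and 0.531). Their summed level was 8675 to 8988 CPM (counts scaled to a common library size) in shScb and 6203 to 6382 CPM in shTTC8. MYCN, which is amplified in this line, made up most of that sum and of its drop. MYCN alone averaged 5738 CPM in shScb and 3766 CPM in shTTC8. Of 6 tested fibroblast markers 1 rose and 5 fell, with sums of 648 to 668 CPM in shScb and 436 to 449 CPM in shTTC8. The adrenergic rise was lost without shTTC8 replicate 2 and the fibroblast rise without either shTTC8 library, leaving 0 rises. Among markers of other cell types, 1 of 1 tested endothelial gene, 1 of 2 blood genes, 1 of 4 epithelial genes and 0 of 3 Schwann and glial genes fell, and none rose. PECAM1, TEK, SOX10, FOXD3, CD3E, HBB and CDH1 had 0 counts in all 4 libraries. The part of these marker changes in the results below was not tested.

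Of the 10 ERK-response genes, 5 rose in shTTC8 (DUSP1, DUSP5, DUSP6, SPRY2 and SPRY4), 3 fell (SPRY1, SPRED1 and ETV5) and DUSP4 and ETV4 passed no threshold. Without shTTC8 replicate 1, 4 rose and 1 fell, since SPRY1, SPRY4 and ETV5 were no longer called. All 10 passed the low-count filter. The called share was 80% against 31.9% of all tested genes, 50% against 15.2% for genes called higher and 30% against 16.7% for genes called lower. The libraries of the groups did not overlap for 8 of the 10, against 65.5% of all tested genes: 5 were higher and 3 lower in shTTC8, where 32.5% and 32.9% of all tested genes were. The median log2 fold change was 0.09, against 0.004 over all tested genes. With 5 called higher and 3 called lower, the genes did not share a direction.

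**Figure D1:**
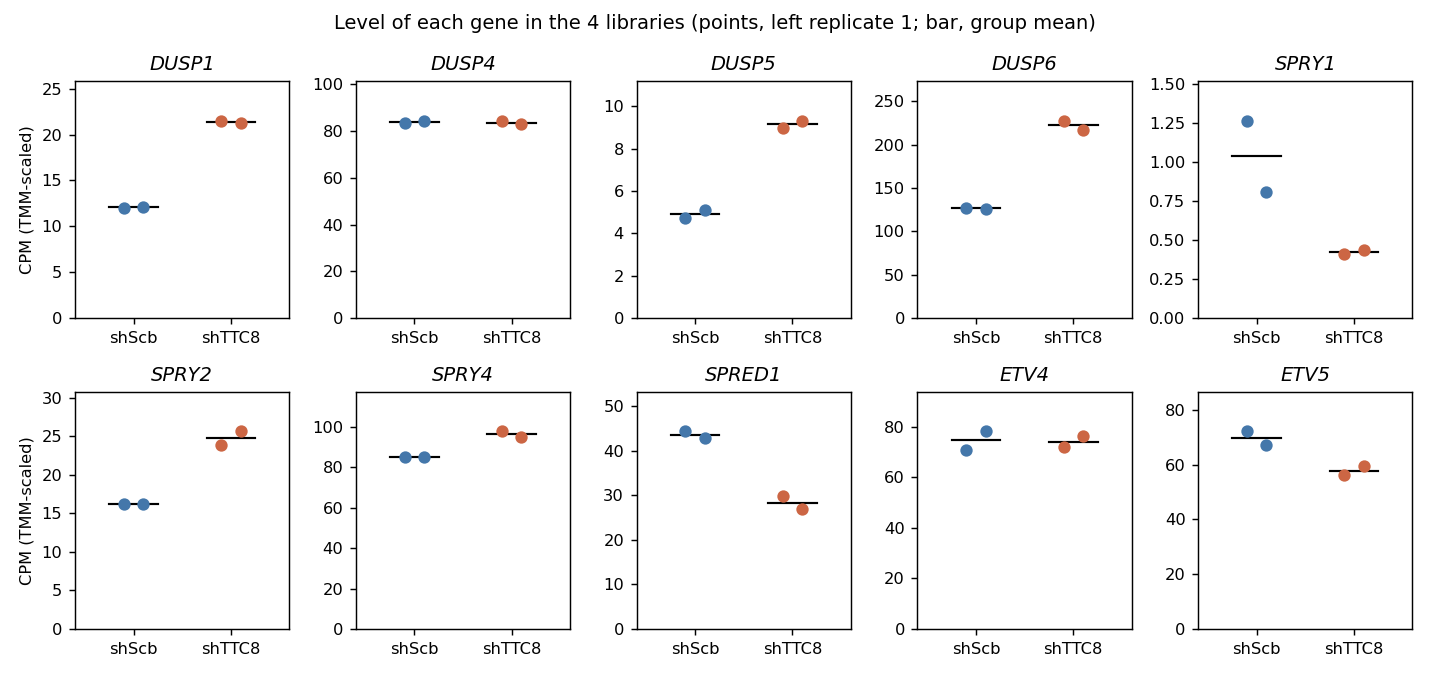
Level of each of the 10 genes in CPM (vertical axis, from 0, its own scale for each gene) in the shScb and shTTC8 libraries; points are libraries, bars are group means. The points of the groups are apart for 8 genes and intermingled for DUSP4 and ETV4.

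The inducible phosphatases DUSP1, DUSP5 and DUSP6 rose by similar amounts, 1.76- to 1.85-fold, whereas the libraries of the groups overlapped for DUSP4. DUSP6 encodes a cytoplasmic phosphatase selective for ERK, and its transcript is a widely used readout of ERK activity. DUSP6 (ENSG00000139318, chromosome 12, 89347232 to 89353271, minus strand, GRCh38) stood at 127 and 126 CPM in shScb and at 228 and 217 CPM in shTTC8. Both shTTC8 libraries were above both shScb libraries by far more than replicates differed. The mean rose from 127 ± 0.225 to 222 ± 8.03 CPM (SD, n = 2), a log2 fold change of 0.81 (SE 0.06, 95% interval 0.68 to 0.94, edgeR adjusted p = 1.62e-07). An antisense gene on the opposite strand shares 1875 exonic bases with DUSP6 and had 2.08% of its counts. The libraries do not mark the strand, so reads in those bases cannot be assigned to either gene.

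DUSP1 encodes a nuclear phosphatase that acts on JNK and p38 as well as ERK and is an immediate-early gene. DUSP1 (ENSG00000120129, chromosome 5, 172768090 to 172771195, minus strand) measured 12.0 and 12.1 CPM in shScb and 21.5 and 21.3 CPM in shTTC8. The SD between replicates was at most 0.170 CPM, and the groups did not overlap. DUSP1 rose 1.77-fold, a log2 fold change of 0.82 (SE 0.10, 95% interval 0.61 to 1.04, edgeR adjusted p = 1.71e-05). DUSP5, the nuclear phosphatase that binds ERK itself, was the lowest of these phosphatases. DUSP5 (ENSG00000138166, chromosome 10, 110497838 to 110511544, plus strand) had 4.75 and 5.11 CPM in shScb and 8.96 and 9.33 CPM in shTTC8. The libraries of the groups were again apart, on 240 to 386 counts each. DUSP5 rose 1.85-fold, a log2 fold change of 0.89 (SE 0.15, 95% interval 0.57 to 1.21, edgeR adjusted p = 3.39e-04). Among the 13 alternative settings the calls of DUSP1, DUSP5 and DUSP6 were lost in 0.

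The promoter of DUSP1 is shown because DUSP1 rose and because its window held a full cyclic AMP response element. It alone did so among the 9 windows searched (6 genes, with DUSP4 left out). The 250 bases before the RefSeq start (GRCh38.p14, chr5:172771196-172771445, minus strand) are printed 5′ to 3′, with the element TGACGTCA and the E-box CACGTG in capitals.
DUSP1: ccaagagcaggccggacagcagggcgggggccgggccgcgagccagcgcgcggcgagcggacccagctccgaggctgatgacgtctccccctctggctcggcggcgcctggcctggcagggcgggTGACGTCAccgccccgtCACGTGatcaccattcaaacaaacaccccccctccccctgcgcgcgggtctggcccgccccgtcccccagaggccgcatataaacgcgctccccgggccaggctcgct
The element lies 125 to 118 bases and the E-box 108 to 103 bases before the start. Searched on both strands, TGACGTCA was found in 1.65% of 35116 promoters of the same length and CACGTG in 6.34%. This window has a GC content of 74.4% (median of all promoters 58.0%) and 0 copies of the ETS core GGAA, which 92.7% of promoters hold. These matches are a description and do not show that a factor was bound.

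DUSP4 encodes another nuclear phosphatase of ERK and JNK. DUSP4 (ENSG00000120875, chromosome 8, 29333064 to 29350668, minus strand) was at 83.4 and 84.4 CPM in shScb and at 84.3 and 82.7 CPM in shTTC8. The libraries overlapped. Its log2 fold change was -0.01 (SE 0.06, 95% interval -0.14 to 0.13, edgeR adjusted p = 0.956), and the upper end of its interval lies below the lower ends of those of DUSP1, DUSP5 and DUSP6. The sign of this value varied among settings, from -0.03 to 0.04.

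Among the MAP kinase phosphatases outside the 10 genes, 6 were tested and 1 rose, 2 fell and 3 passed no threshold (median -0.13, 50% called). DUSP8, a phosphatase of JNK and p38, rose from 2.54 ± 0.0763 to 5.36 ± 0.623 CPM (SD, n = 2), by 1.08 on the log2 scale (SE 0.20, edgeR adjusted p = 6.74e-04). DUSP9, a cytoplasmic ERK phosphatase related to DUSP6, fell by 1.04 (SE 0.20, edgeR adjusted p = 0.00118), from 4.65 ± 0.341 to 2.26 ± 0.0840 CPM (SD, n = 2). The JNK phosphatase DUSP16 fell by 0.27 (edgeR adjusted p = 0.00486, or 0.0738 without shTTC8 replicate 1). DUSP2, DUSP7 and DUSP10 had log2 fold changes of -0.06, -0.19 and 0.21 (edgeR adjusted p = 0.909, 0.0872 and 0.623). Close relatives within the family thus moved in opposite directions, DUSP6 up and DUSP9 down.

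To compare genes with each other, counts were divided by the length of a gene's exons and scaled to the same sum in each library (level per length). On that scale the 10 MAP kinase phosphatases summed to 202 and 204 in shScb and to 285 and 276 in shTTC8. The sums of the groups did not overlap. DUSP6 was the main component: its share of the family sum averaged 38.7% in shScb and 50.9% in shTTC8, with no overlap between the groups. The shares of DUSP16 (18.4% in shScb, 11.5% in shTTC8), DUSP4 (16.4% and 12.2%) and DUSP7 (10.3% and 6.80%) were lower in shTTC8, and that of DUSP1 higher (8.47% and 11.3%). DUSP4 thus lost share at an even level of its own. These sums and shares have no test.

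**Figure D2:**
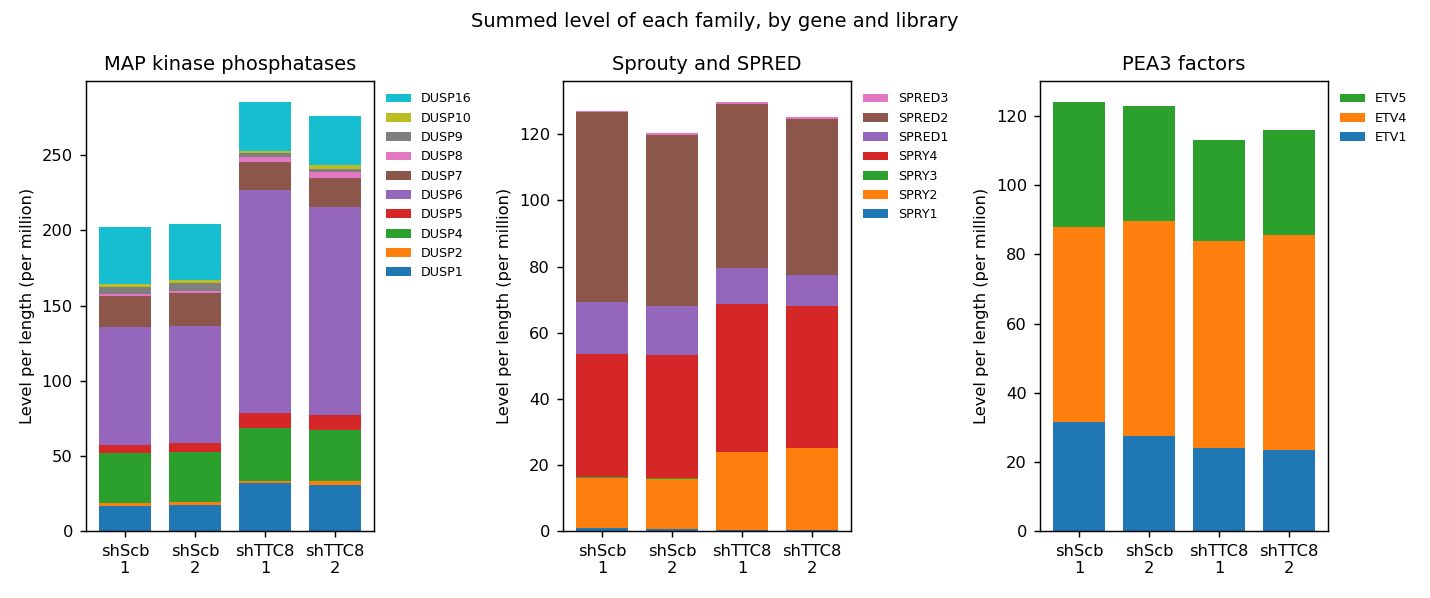
Summed level per length (vertical axis, from 0, scaled to the same sum in each library) of the MAP kinase phosphatases, the Sprouty and SPRED genes and the PEA3 factors in each of the 4 libraries, with each gene as a segment. The phosphatase sum goes from 202 and 204 to 285 and 276, with DUSP6 the largest segment in each library, while the Sprouty and SPRED sums of the groups overlap.

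The Sprouty and SPRED genes were split: SPRY2 rose, SPRY4 rose slightly, and SPRED1 and SPRY1 fell. SPRY2, which binds GRB2 and CBL after receptor activation, lies on chromosome 13 (ENSG00000136158, 80335976 to 80340951, minus strand). It was at 16.2 and 16.3 CPM in shScb and at 23.8 and 25.6 CPM in shTTC8. The gap between the groups was larger than the difference between replicates. SPRY2 rose 1.52-fold, a log2 fold change of 0.61 (SE 0.09, 95% interval 0.41 to 0.81, edgeR adjusted p = 1.78e-04), and was called under all 13 alternatives. SPRY4, which restrains RAF activation, was the most abundant Sprouty. SPRY4 (ENSG00000187678, chromosome 5, 142310427 to 142326455, minus strand) had 84.9 CPM in both shScb libraries and 97.9 and 95.2 CPM in shTTC8. Its difference was small, with groups that did not overlap. SPRY4 rose 1.14-fold, a log2 fold change of 0.18 (SE 0.06, 95% interval 0.05 to 0.32, edgeR adjusted p = 0.0316). Leaving out either shTTC8 library ended that call, with log2 fold changes of 0.16 without replicate 1 and 0.21 without replicate 2. Leaving out either shScb library did not. The call was also lost with the replicate number as a block (edgeR adjusted p = 0.0606) and with no low-count filter (0.0896).

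SPRED1 encodes a membrane-bound inhibitor that brings neurofibromin, a RAS-inactivating protein, to RAS. SPRED1 (ENSG00000166068, chromosome 15, 38252326 to 38357249, plus strand) stood at 44.3 and 42.7 CPM in shScb and at 29.8 and 26.8 CPM in shTTC8. Every shTTC8 value was below every shScb value. SPRED1 fell to 0.650 of the shScb level, a log2 fold change of -0.62 (SE 0.09, 95% interval -0.80 to -0.44, edgeR adjusted p = 6.10e-05), and was called in all 13 alternatives. SPRY1, the Sprouty best known from kidney development, was barely expressed. SPRY1 (ENSG00000164056, chromosome 4, 123396795 to 123403760, plus strand) had 64 and 44 counts in shScb and 16 and 18 in shTTC8, or 1.27 and 0.810 CPM against 0.412 and 0.435 CPM. The groups did not overlap, but the shScb libraries were themselves far apart. SPRY1 fell by 1.29 on the log2 scale (SE 0.41, 95% interval -2.17 to -0.40, edgeR adjusted p = 0.0269). The call was lost without shScb replicate 1 (edgeR adjusted p = 0.253), without either shTTC8 library (0.0865 and 0.0657), in DESeq2 (0.115) and in limma-voom (0.0503).

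The promoters of SPRY2 and SPRY1 are set side by side because these Sproutys moved in opposite directions. Each line gives the 250 bases before a RefSeq start (GRCh38.p14), 5′ to 3′, with the ETS core GGAA, or TTCC where it is on the other strand, in capitals. For SPRY2 the window is that of the outermost of 3 listed starts (chr13:80341127-80341376, minus strand), and for SPRY1 that of the first of 2 (chr4:123396545-123396794, plus strand).
SPRY2: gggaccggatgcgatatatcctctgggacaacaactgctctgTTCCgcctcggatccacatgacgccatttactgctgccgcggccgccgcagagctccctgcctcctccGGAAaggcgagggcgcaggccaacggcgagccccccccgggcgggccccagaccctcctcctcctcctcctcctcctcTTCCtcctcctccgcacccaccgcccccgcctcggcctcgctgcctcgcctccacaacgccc
SPRY1: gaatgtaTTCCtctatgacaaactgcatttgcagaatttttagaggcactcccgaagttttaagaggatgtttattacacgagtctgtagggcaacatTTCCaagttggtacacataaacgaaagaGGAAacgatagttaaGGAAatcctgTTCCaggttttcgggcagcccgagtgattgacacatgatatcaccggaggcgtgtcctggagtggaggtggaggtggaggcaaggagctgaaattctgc
The SPRY2 window has 3 cores and a GC content of 70.4%, and the SPRY1 window has 5 cores and 45.6%. The windows of the other starts do not keep this contrast: those of SPRY2 have 4 cores each and a GC content of 41.2% and 62.4%, and that of SPRY1 has 4 cores and 68.0%. The median of all promoters is 3 cores. The longer ETS site CCGGAAGT, held by 3.42% of promoters, was in 0 of the 9 windows searched for these genes, with DUSP4 left out. The CIC octamers TGAATGAA (1.40% of promoters) and TCAATGAA (0.635%), the AP-1 site TGANTCA (6.57%) and the CArG box (1.16%) were also in 0 of the 9. This says only that those letters are not in these windows.

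Of the other 3 genes of the family, SPRED2, a further RAS and RAF inhibitor, fell by 0.23 on the log2 scale (SE 0.07, edgeR adjusted p = 0.0160), from 98.0 ± 6.98 to 83.5 ± 1.69 CPM (SD, n = 2). Its call was lost without shScb replicate 1 (edgeR adjusted p = 0.0590) and without either shTTC8 library (0.0784 and 0.147). SPRY3 and SPRED3 were not called, at -0.64 and 0.24 (edgeR adjusted p = 0.361 and 0.624). Summed per length, the 7 Sprouty and SPRED genes came to 127 and 120 in shScb and to 130 and 125 in shTTC8. These sums overlapped although 5 of the 7 genes were called. Within the sum, SPRY2 went from 12.4% to 19.0% and SPRY4 from 30.1% to 34.3%, while SPRED2 went from 44.1% to 37.8%. SPRED1 made up 12.2% and 12.3% of the sum in the shScb libraries and 8.37% and 7.63% in the shTTC8 libraries.

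**Figure D3:**
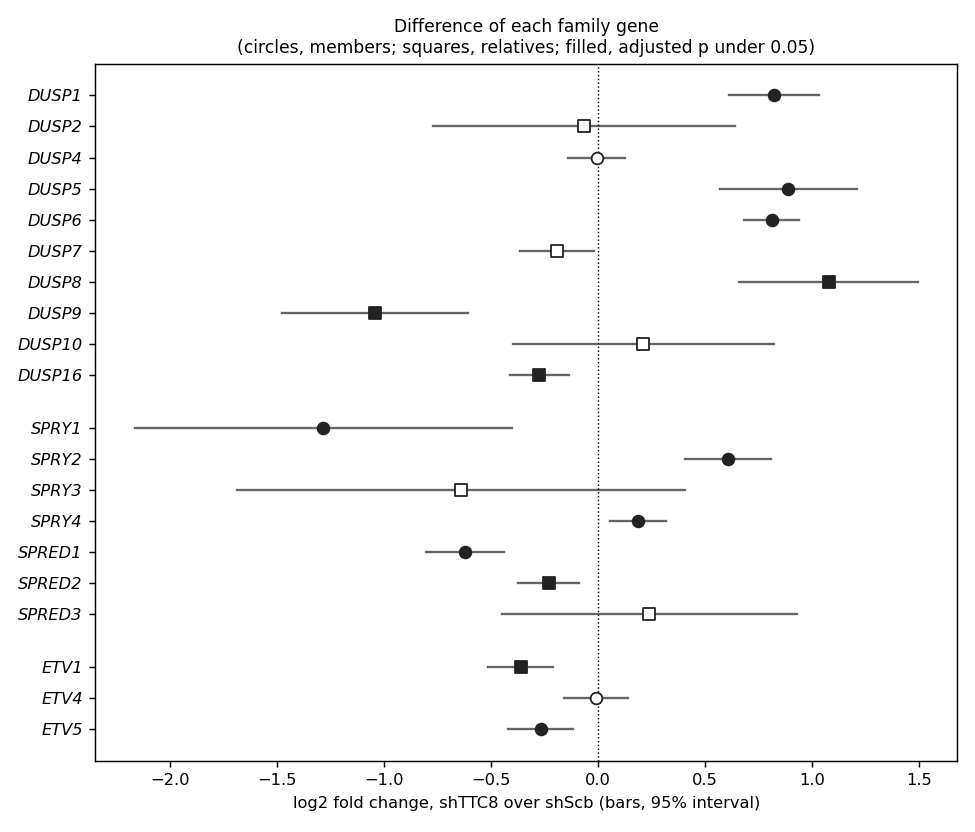
Log2 fold change of shTTC8 over shScb (horizontal axis) for the 10 genes (circles) and their relatives (squares), with 95% intervals as bars and filled symbols for an adjusted p under 0.05. DUSP1, DUSP5 and DUSP6 lie together between 0.81 and 0.89, and SPRED1 at -0.62 lies opposite SPRY2 at 0.61.

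ETV5 and ETV4, factors that act on growth, invasion and branching programmes, did not follow DUSP6. ETV5 (ENSG00000244405, chromosome 3, 186046308 to 186110318, minus strand) was at 72.2 and 67.2 CPM in shScb and at 56.1 and 59.7 CPM in shTTC8. The groups did not overlap. ETV5 fell to 0.830 of the shScb level, a log2 fold change of -0.27 (SE 0.07, 95% interval -0.42 to -0.12, edgeR adjusted p = 0.00944, or 0.140 without shTTC8 replicate 1). ETV4 (ENSG00000175832, chromosome 17, 43527844 to 43579620, minus strand) had 70.9 and 78.2 CPM in shScb and 71.8 and 76.1 CPM in shTTC8. Both shTTC8 values lay between the shScb values. ETV4 had a log2 fold change of -0.01 (SE 0.07, 95% interval -0.16 to 0.14, edgeR adjusted p = 0.928), and its sign varied among settings, from -0.08 to 0.06. ETV4 shares 68 exonic bases with DHX8 on the opposite strand, a gene with 113% of its counts and a log2 fold change of -0.05 (edgeR adjusted p = 0.654). ETV5 shares 164 exonic bases with DGKG, which had 2.78% of its counts.

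ETV1, the other PEA3 factor, fell by 0.36 on the log2 scale (SE 0.07, edgeR adjusted p = 0.00127), from 98.6 ± 9.31 to 76.7 ± 0.384 CPM (SD, n = 2). The 3 PEA3 factors summed to 124 and 123 per length in shScb and to 113 and 116 in shTTC8, sums that did not overlap. ETV4 made up 48.1% of that sum in shScb and 53.3% in shTTC8. Of 18 tested ETS factors outside the 10 genes, 2 rose and 5 fell (median -0.16, 38.9% called). FEV, a factor of serotonergic neurons, rose by 0.85, while the SRF partner ELK3 fell by 0.42 and the repressor ETV6 fell by 0.35 (edgeR adjusted p = 4.35e-06, 5.73e-04 and 0.00835). Without shTTC8 replicate 1 ETV6 was at an adjusted p of 0.0811 and the list held 1 rise and 3 falls. It held 1 rise and 5 falls without shTTC8 replicate 2, and 2 rises and 3 falls without shScb replicate 1.

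In level per length, DUSP6 was first of the 10 genes in both groups, at 78.5 ± 0.329 in shScb and 143 ± 7.22 in shTTC8 (SD, n = 2). In shScb it was above 89.5% of the tested protein-coding genes. ETV4 followed at 59.3, then SPRY4 at 37.2, ETV5 at 34.5, DUSP4 at 33.2, DUSP1 at 17.2, SPRY2 at 15.3, SPRED1 at 15.1, DUSP5 at 5.42 and SPRY1 at 0.753. The shScb libraries of ETV5 and DUSP4 overlapped, as did those of SPRY2 and SPRED1, so these neighbours did not differ beyond their spread. In shTTC8 the order of ETV5, DUSP4 and DUSP1 became DUSP4 at 34.3, DUSP1 at 31.5 and ETV5 at 29.7, and DUSP5 at 10.4 stood beside SPRED1 at 10.2. With the longest transcript as the length, ETV4 was first and DUSP6 the next in shScb.

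**Figure D4:**
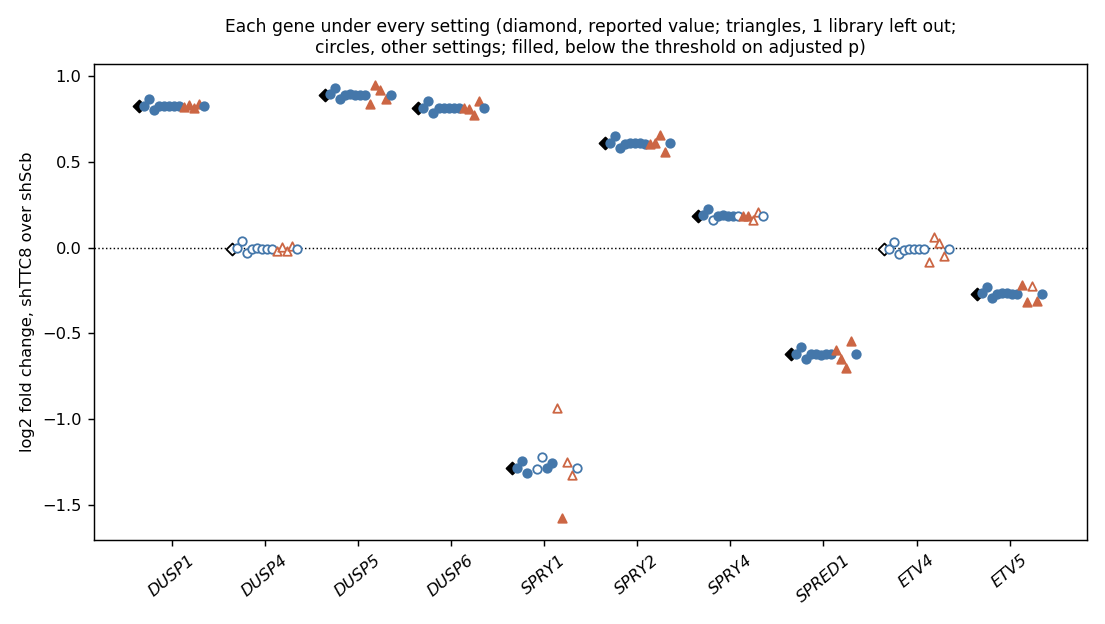
Log2 fold change of shTTC8 over shScb (vertical axis) for each of the 10 genes as reported (diamonds), with 1 library left out (triangles) and under the other settings (circles); filled symbols passed the threshold on adjusted p. DUSP1, DUSP5, DUSP6, SPRY2 and SPRED1 are filled throughout, and SPRY1, SPRY4 and ETV5 are not.

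The receptors above these brakes moved both ways. Of 18 tested receptor tyrosine kinases 4 rose and 6 fell (median -0.15, 55.6% called). RET, the GDNF-family receptor of sympathetic neurons, fell from 249 ± 5.22 to 129 ± 2.07 CPM (SD, n = 2), a difference of -0.95 on the log2 scale (SE 0.06, edgeR adjusted p = 3.62e-08). EGFR fell by 0.59 and PDGFRB by 0.41 (edgeR adjusted p = 1.93e-04 and 1.12e-04). Without shTTC8 replicate 1 the list held 1 rise and 7 falls, and without replicate 2 it held 1 rise and 4 falls. RET, EGFR and PDGFRB were called in both.

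Between receptor and RAS, 14 adaptors and RAS activators were tested, of which 2 rose and 4 fell (median -0.09, 42.9% called). The docking protein GAB1 fell by 0.70, the adaptor SHC1 by 0.32 and the RAP and RAS activator RASGRP2 by 1.27, and the FGF receptor adaptor FRS3 rose by 0.56 (edgeR adjusted p = 1.59e-04, 0.00123, 0.00555 and 0.00135). Leaving out shScb replicate 1 or either shTTC8 library gave 1 rise, and falls numbered 6 without shScb replicate 2. Of 18 tested RAS, RAF, MEK and ERK genes with their scaffolds, 4 rose and 6 fell (median -0.003, 55.6% called). HRAS rose from 18.2 ± 1.74 to 28.7 ± 3.34 CPM (SD, n = 2), a difference of 0.66 on the log2 scale (edgeR adjusted p = 2.29e-04). NRAS fell by 0.24 and the scaffold IQGAP1 by 0.23 (edgeR adjusted p = 0.00692 and 0.00777), and both calls were lost without shTTC8 replicate 1 (0.0619 and 0.0774) and without replicate 2 (0.0910 and 0.0992). MAPK3, which encodes ERK1, was chosen after its values were seen and rose by 0.27 (edgeR adjusted p = 0.00953, or 0.153 without shTTC8 replicate 1). Without shTTC8 replicate 1 this list held 1 rise and 1 fall, and without replicate 2 it held 3 of each.

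Of 15 tested genes for other brakes on RAS and ERK, 1 rose and 3 fell (median 0.02, 26.7% called). RASA3, a RAS GTPase-activating protein, fell by 0.48 on the log2 scale (SE 0.08, edgeR adjusted p = 4.45e-04). PEBP1, the RAF kinase inhibitor protein, rose by 0.21, and the ubiquitin ligases CBL and CBLB fell by 0.19 each (edgeR adjusted p = 0.0140, 0.0426 and 0.0463). Those 3 calls were lost without shTTC8 replicate 1 (edgeR adjusted p = 0.101, 0.261 and 0.284) and without replicate 2 (0.163, 0.160 and 0.165), and those of CBL and CBLB also without shScb replicate 1 (0.161 and 0.138). Leaving out shScb replicate 2 gave 2 rises, and leaving out shTTC8 replicate 2 gave 0.

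Of 18 tested further ERK output transcripts, 4 rose and 3 fell (median 0.0001, 38.9% called). The immediate-early factor EGR1 averaged 6.52 ± 0.272 CPM in the shScb libraries and 30.7 ± 1.98 CPM in the shTTC8 libraries (SD, n = 2). EGR1 rose by 2.23 on the log2 scale (SE 0.10, edgeR adjusted p = 2.55e-09). FOS rose by 1.79 at a level below 1 CPM in every library (edgeR adjusted p = 0.00872, or 0.0584 without shTTC8 replicate 1). The cell cycle gene CCND1 fell by 0.26 and the factor KLF6 by 0.28 (edgeR adjusted p = 0.00323 and 0.0108). Both of these calls were lost without shTTC8 replicate 1 (edgeR adjusted p = 0.0560 and 0.0616) and without replicate 2 (0.0539 and 0.119). The third fall was ARC, a synaptic immediate-early gene named here after its values were seen, at -0.38 (edgeR adjusted p = 0.0273). The call of ARC was lost with any of the 4 libraries left out (edgeR adjusted p = 0.0505 and 0.0772 for the shScb libraries, 0.1096 and 0.1285 for the shTTC8 libraries). Falls numbered 0 without either shTTC8 library. Rises numbered 1 without replicate 1. Among 11 tested kinases and factors that ERK acts on, 3 rose and 4 fell (63.6% called). MKNK2 rose by 0.63 and SRF by 0.50, and the ribosomal S6 kinases RPS6KA3 and RPS6KA6 fell by 0.81 and 0.49 (edgeR adjusted p = 1.83e-06, 1.15e-04, 3.49e-06 and 4.05e-05). Falls numbered 2 without either shTTC8 library.

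**Figure D5:**
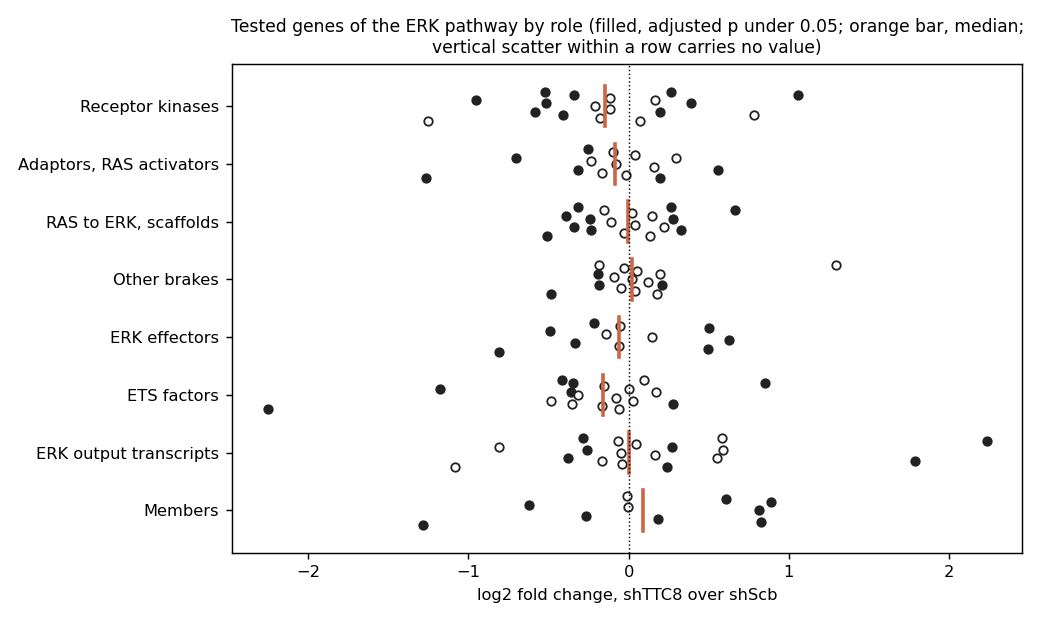
Log2 fold change of shTTC8 over shScb (horizontal axis) for the tested genes of each pathway role (rows); filled points had an adjusted p under 0.05 and orange bars are row medians. Every row holds points on both sides of 0, and EGR1 at 2.23 is the point farthest to the right among the output transcripts.

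Across all the pathway lists together, 146 genes were tested, of which 28 rose and 36 fell (median -0.05, 43.8% called). Chromosomal neighbours of the 10 genes were looked at as a check of position. POC1B, a centriole gene 66447 bases from DUSP6, fell by 1.48 on the log2 scale (edgeR adjusted p = 1.26e-07) where DUSP6 rose. Among the nearest tested neighbours on each side of the 10 genes, ERGIC1 beside DUSP1 fell by 0.23, SMC3 beside DUSP5 by 0.22 and NDFIP1 beside SPRY4 by 0.27, while KIF13B beside DUSP4 rose by 0.44 and DUSP3, 186501 bases from ETV4, rose by 0.51 (edgeR adjusted p = 0.00616, 0.0108, 0.00356, 0.00136 and 3.19e-04). The calls of ERGIC1 and SMC3 were lost without shTTC8 replicate 1 (edgeR adjusted p = 0.0799 and 0.118) and without replicate 2 (0.0815 and 0.102), and that of NDFIP1 without replicate 1 (0.0607). The other neighbours were not called.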

How the data were processed

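RNA sequencing was analysed from 4 samples of SK-N-BE(2) cells, grouped by their titles. Per the labels' protocols, total RNA was made into libraries with Illumina's TruSeq RNA kit, a kit without strand marking. HISAT2 2.2.0 and hg38 are named in the submitters' processing notes; for the read counter and annotation no source used here names one. The authors' deposited values are raw counts per Ensembl gene, with 33779 of 64252 genes counted. A gene name table gave symbols for 40995 IDs and GENCODE 29 for a further 15596, and all 198 listed genes matched. Sequences are RefSeq's.

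In R 4.3.3, edgeR 4.0.16 tested 19610 genes (filterByExpr, TMM scaling, robust quasi-likelihood F test, two-sided, Benjamini-Hochberg at 0.05). A standard error is the fitted log2 difference divided by the root of F, with 95% intervals from the same residual degrees of freedom. CPM used TMM-scaled library sizes. Levels per length used GENCODE 29 exonic positions. Positions are of GRCh38, the assembly hg38 names. The steps were tested on simulated data.

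Named genes were TTC8, the 10 genes, up to 4 called genes of smallest p per list, close family relatives, overlapping genes and nearest tested neighbours. A few genes under this rule are not reported here. The genes and lists were chosen with earlier results of these data known. Log2 CPM (prior count 2) correlated across genes, which are not independent, at 0.987 for the shScb pair and 0.986 for the shTTC8 pair, and at 0.974 or less across groups. Counts of replicates differed by more than sampling noise (chi-square per degree of freedom 11.4 and 6.40). The biological coefficient of variation was 10.5%. Alternatives were RLE or library-size scaling, no filter or a minimum of 1 CPM in 2 libraries, limma-voom (limma 3.58.1), DESeq2 1.42.0, non-robust fitting, a replicate block, each library left out, an adjusted p under 0.01, and the longest transcript as the length.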

Additional observations from a re-analysis of the deposited data

How the results depend on the processing

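DUSP1, DUSP5, DUSP6, SPRY2 and SPRED1 were called in the same direction in all 13 alternatives; SPRY1, SPRY4 and ETV5 were not, as given with their values, and no called gene changed sign. At an adjusted p under 0.01, SPRY1 and SPRY4 passed no threshold, and SPRY1 was not tested at a minimum of 1 CPM. With 1 library left out, the lone library is assumed to vary like the other group: 4 to 5 of the 10 genes were then called higher and 1 to 3 lower (1 without shTTC8 replicate 1), and of all genes 1880 to 3395 were called higher and 2383 to 3555 lower. At an adjusted p under 0.01, 1917 genes were called higher. DESeq2 called 2 of the 10 genes lower.

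Across genes, the deviations between replicates correlated at 0.0317 between the groups (over 2 pairs). So few pairs cannot show whether the replicate numbers pair the samples. With the replicate number as a block, 3092 genes were called higher and 3343 lower, and of the 10 genes 4 higher and 3 lower, SPRY4 being the call lost. DUSP6 made up 26.5% of the summed level per length of the 10 genes in shScb, and 22.6% with the longest transcript as the length. Depth limits SPRY1 most, at 16 to 64 counts a library. The median of all tested genes was 0.004 under TMM, 0.006 under RLE and 0.04 under library size alone. The cause of the lost calls was not tested.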

Other observations

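The atypical dual-specificity phosphatases, which lack the domain that docks MAP kinases, were also measured. Of 12 tested, 3 rose and 0 fell (median 0.09, 25% called). DUSP3 rose from 33.2 ± 2.85 to 47.4 ± 2.12 CPM (SD, n = 2), a difference of 0.51 on the log2 scale (edgeR adjusted p = 3.19e-04). DUSP26, a phosphatase of neural tissue, rose by 0.27 and the pseudophosphatase STYX by 0.36 (edgeR adjusted p = 0.00977 and 0.0123). Without shTTC8 replicate 1 both were at an adjusted p of 0.133, leaving 1 rise, and without shScb replicate 2 there was 1 fall.

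Of 13 tested kinases of the JNK, p38 and ERK5 branches, which several of these phosphatases also act on, 4 rose and 2 fell (median 0.09, 46.2% called). MAPK14, which encodes p38 alpha, fell from 72.8 ± 0.810 to 40.1 ± 0.824 CPM (SD, n = 2), a difference of -0.86 on the log2 scale (edgeR adjusted p = 3.97e-07). The neuronal JNK gene MAPK10 rose from 8.58 ± 0.144 to 15.5 ± 0.0268 CPM (SD, n = 2), a difference of 0.85 on the log2 scale (edgeR adjusted p = 4.57e-05). MAPK12, which encodes p38 gamma, rose by 0.38, and the JNK activator MAP2K4 rose by 0.36 (edgeR adjusted p = 6.90e-04 and 0.0112, the latter 0.116 without shTTC8 replicate 2).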
